A study of Mus musculus with 4 samples.

Results

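The genes described here, 9 of the 23875 listed in the deposited RNA-seq table, serve to carry lactate, protons and bicarbonate across membranes or turn carbon dioxide into bicarbonate. They were taken by symbol, and each symbol matched 1 row. They are the carbonic anhydrases Car2, Car9, Car12 and Car14, the lactate transporters Slc16a1 and Slc16a3 with their chaperone Bsg, and the bicarbonate transporters Slc4a2 and Slc4a7. The table was made from 4 RNA-seq libraries of mouse ovarian cancer cells, a parental line and a line taken from a tumor it formed. ID8-P0 is the parental line, ovarian surface epithelial cells of C57BL/6 mice that transformed in culture, labelled wild type, without passage in an animal, and carrying GFP and luciferase per the study's methods. ID8-PW2 is a line grown out of a peritoneal wall tumor after 2 passages of these cells in C57BL/6 mice, labelled wild type as well, and it is a single line. Cells of both lines were kept off the plastic on poly-HEMA-coated plates, in suspension, for 24 h, and 2 libraries were sequenced from each line. No attached cells were sequenced.

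Values per library are not used here, because the 4 count columns carry names that no sample label gives. What is described is the level of each gene as the authors' mean over the 4 libraries of both lines, in CPM (read counts scaled to a common library total), and its spread. No value is given for 1 line alone, so a ratio or an order of these means need not hold within either line, most of all for a gene whose level differs between the lines. No difference between the lines was tested, and the depth of each library is not given. The spread is the biological coefficient of variation (BCV), the square root of the deposited dispersion. It stands for the variation of a gene between libraries of one line beyond counting error, and the authors' software draws it toward that of genes at a like level. It holds neither counting error nor a difference between the lines, so 2 levels further apart than their joint BCV have not thereby been shown to differ by a test.

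Cells that burn glucose through glycolysis make lactate and protons. The lactate carriers of the Slc16 family move 1 proton with each lactate, and they reach the cell surface only with an immunoglobulin-like chaperone such as basigin. Carbonic anhydrases turn carbon dioxide and water into bicarbonate and a proton, inside the cell or, for the membrane-bound forms, at its outer face, and transporters of the Slc4 family move the bicarbonate. Tumor cells are known for keeping a near-neutral inside and an acid outside by this machinery, and hypoxia is known to raise part of it through hypoxia-inducible factors (HIF). Oxygen was not measured in these libraries.

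Of the 9 genes, 7 had a mean level of at least 1 CPM (77.8%), against 12214 of all genes listed (51.2%) and 11681 of the 20674 protein-coding genes (56.5%). The 2 under 1 CPM were Car2 and Car14. The median level of the 9 genes was 31.3 CPM, against 1.22 CPM over all genes and 18.1 CPM over the genes of at least 1 CPM. Their levels ran from 0.243 CPM for Car14 to 833 CPM for Bsg, and together they held 1238 CPM.

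Basigin, encoded by Bsg (ENSMUSG00000023175, chromosome 10, 79704491 to 79711969, plus strand), is the glycoprotein that brings both lactate transporters of this set to the cell surface. It was the most abundant of the 9 genes, at 833 CPM or 9.70 on the log2 scale. That level was the 62nd highest in the table and above 99.7% of all genes. Its exons cover 1814 bases, which gave 459 CPM per kb of exon.

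Slc16a1 (ENSMUSG00000032902, chromosome 3, 104638668 to 104658462, plus strand) encodes MCT1, the widely expressed lactate transporter that works in both directions. Its mean level was 185 CPM (7.54 on the log2 scale), above 97.8% of all genes, and 41.9 CPM per kb. Slc16a3 (ENSMUSG00000025161, chromosome 11, 120948480 to 120960868, plus strand) encodes MCT4, the form known for lactate export from strongly glycolytic cells and as a HIF target. Its mean level was 28.0 CPM (4.81 on the log2 scale), above 80.4% of all genes, and 5.27 CPM per kb. Per kb of exon and as means over both lines, Slc16a1 stood 7.95 times as high as Slc16a3, and Bsg stood 11.0 times as high as Slc16a1. With the longest annotated transcript as the length, these ratios were 6.48 and 13.0, so the order of these 3 means did not rest on the choice of length. The ratios within each line were not computed.

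Among the membrane-bound carbonic anhydrases, whose active site faces outward, Car12 led. Car12 (ENSMUSG00000032373, chromosome 9, 66713686 to 66766845, plus strand) had a mean level of 85.2 CPM (6.41 on the log2 scale), above 93.5% of all genes, and 11.2 CPM per kb. Car9 (ENSMUSG00000028463, chromosome 4, 43506966 to 43513729, plus strand) encodes carbonic anhydrase IX, a textbook HIF target. Its mean level was 3.04 CPM (1.60 on the log2 scale). That was above 55.5% of all genes but above only 13.0% of the genes of at least 1 CPM, and it came to 1.32 CPM per kb. Per kb of exon, the mean of Car12 over both lines stood 8.52 times as high as that of Car9, and 15.3 times with the longest transcript as the length, and this ratio too was not computed within each line.

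Car14 and Car2 were near the bottom of the table. Car14 (ENSMUSG00000038526, chromosome 3, 95897768 to 95904691, minus strand), another membrane-bound form, had a mean level of 0.243 CPM (-2.04 on the log2 scale). Car2 (ENSMUSG00000027562, chromosome 3, 14886426 to 14900769, plus strand), the fast cytosolic form abundant in red cells and in acid-secreting cells, had a mean level of 0.324 CPM (-1.63 on the log2 scale). The lowest level any gene takes in the table is 0.163 CPM, shared by 4561 genes. Car14 stood at 1.50 times and Car2 at 1.99 times that level, so both lay close to that floor, and how far under Car9 they were cannot be read from these levels.

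Slc4a2 (ENSMUSG00000028962, chromosome 5, 24423837 to 24440950, plus strand) encodes AE2, which exchanges bicarbonate for chloride and so loads acid into the cell. Its mean level was 71.5 CPM (6.16 on the log2 scale), above 92.0% of all genes, and 8.59 CPM per kb. Slc4a7 (ENSMUSG00000021733, chromosome 14, 14703025 to 14799943, plus strand) encodes NBCn1, which brings bicarbonate in together with sodium and so removes acid. Its mean level was 31.3 CPM (4.97 on the log2 scale), above 82.0% of all genes, and 2.06 CPM per kb. Per kb of exon, the acid loader stood 4.17 times as high as the acid extruder, and 4.35 times with the longest transcript.

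**Figure D1:**
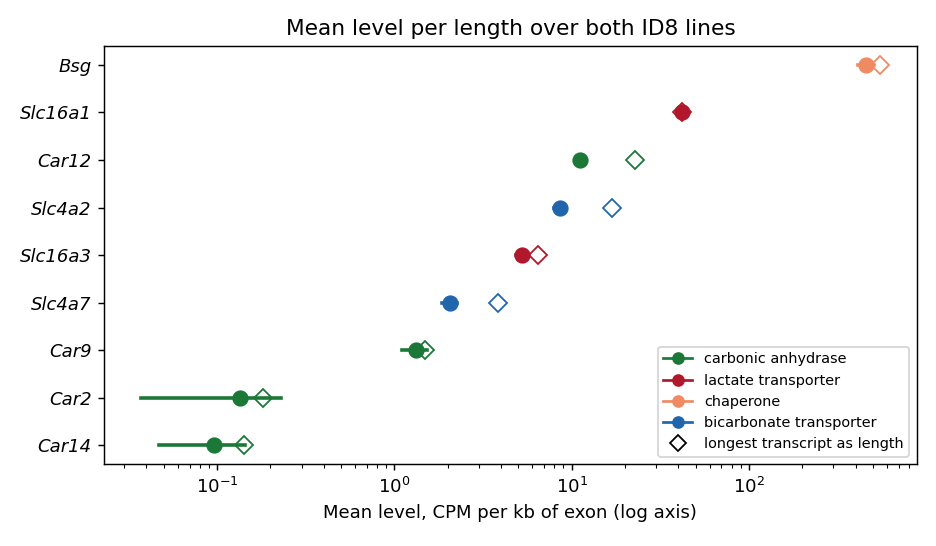
Mean level of each of the 9 genes in CPM per kb of exon, on a log axis, over the libraries of both lines. Filled points use the union of exons as the length with a line of 1 BCV to each side, and open diamonds use the longest annotated transcript. The genes keep 1 order under both lengths, from Bsg at 459 to Car14 at 0.0957 CPM per kb, and only the lines of Car2 and Car14 overlap.

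Per kb of exon, the order of the means over both lines, from high to low, was Bsg, Slc16a1, Car12, Slc4a2, Slc16a3, Slc4a7, Car9, Car2 and Car14. The places within each line were not determined and may differ. Of the 8 neighbouring pairs, 7 were further apart than their joint BCV, the root of the sum of both squared BCVs. The closest of these 7 were Car12 and Slc4a2, 30.7% apart against a joint BCV of 9.50%. Car2 and Car14 were not further apart than theirs, at 39.8% against 88.1%. The longest transcript as the length kept all 9 places. In relative terms it raised the levels of Car12, Slc4a2 and Slc4a7 the most, to 22.9, 16.8 and 3.85 CPM per kb, since their annotated exons together are much longer than any 1 transcript.

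Of the 7 expressed genes, 6 had a BCV close to the median of the 200 genes nearest to them in level. The software draws each BCV toward that of such genes, so this closeness is in part built in. The BCV was 6.15% for Slc16a1, 6.41% for Car12, 7.02% for Slc4a2, 8.02% for Slc16a3, 9.26% for Slc4a7 and 16.2% for Car9, which was 0.921 to 1.18 times the median BCV of genes of like level. Of the genes of like level, 86.0% had a lower BCV than Slc4a7 and 72.5% a lower one than Slc4a2. For the rest of these 6 genes the share was 33.0% to 52.5%. Over all genes of at least 1 CPM the median was 9.77%, and Car9, the lowest of the expressed members, was the only one of these 6 above it. Bsg was the exception. Its BCV was 10.3% against a median of 6.26% at its level, and 99.0% of the genes of like level had a lower one. Of the low genes, Car14 had a BCV of 50.7% and Car2 one of 72.1%, against medians of 55.8% and 41.0% at their levels, and 92.0% of the genes of like level had a lower BCV than Car2. Many low genes share a BCV of 73.6%, and that of Car2, near the floor, lies just under this value. What lies behind the spread of Bsg and Car2, such as 1 library standing apart, was not tested.

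**Figure D2:**
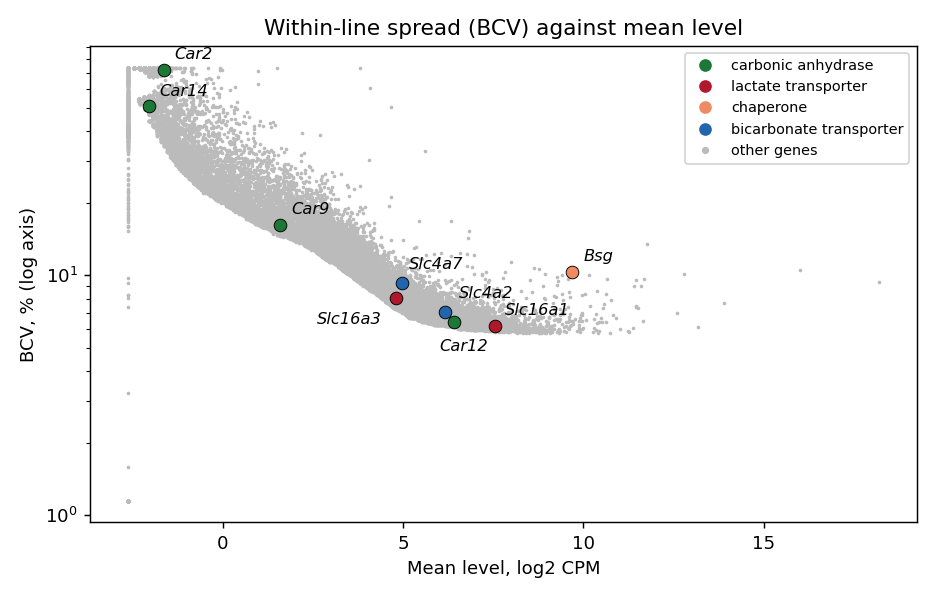
BCV of every gene in percent, on a log axis, against its mean level in log2 CPM over both lines, with the 9 genes in color and all others in grey. Bsg lies above the cloud at its level (10.3% against a median of 6.26%) and Car2 near the upper edge at 72.1%, while Slc16a1, Slc16a3, Car12, Car9, Slc4a2 and Slc4a7 lie within it.

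Within their families, the abundant members of the set took most of the level. Of the 16 carbonic anhydrases, 6 reached 1 CPM, and Car12 held 65.4% of their summed level per kb and Car9 held 7.68%. None of the other 12 carbonic anhydrases reached 10 CPM, and their median was 0.469 CPM. The highest of them were Car5b, a mitochondrial form, at 6.24 CPM and 0.983 CPM per kb, and Car11, a relative without enzyme activity, at 3.56 CPM and 1.85 CPM per kb. Per kb, Car11 with 10.8% of the family's level thus stood above Car9. The relatives Car13, Car1 and Car3 lie beside Car2 within 259 kb of chromosome 3, from 14641727 to 14900769. Of these 4 neighbours only Car13, another cytosolic form, reached 1 CPM, at 2.69 CPM, while Car1 and Car3 were at the table's lowest level.

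Of the 14 genes of the Slc16 family, 7 reached 1 CPM. Slc16a1 held 64.0% of their summed level per kb and Slc16a3 held 8.05%. Slc16a7 and Slc16a8, family members also known to carry lactate, were at 0.184 and 0.225 CPM, both under 1 CPM, unlike the 2 genes of the set. Which of the other Slc16 genes above 1 CPM carry lactate was not examined. Both relatives of basigin were expressed. Emb (embigin), another chaperone of monocarboxylate transporters, had a mean level of 463 CPM and 67.0 CPM per kb with a BCV of 6.07%, and Nptn (neuroplastin) had 137 CPM and 22.3 CPM per kb with a BCV of 7.29%. Bsg held 83.7% of the summed level per kb of the 3 chaperones, or 74.3% with the longest transcript. It stood 6.85 times as high as Emb per kb of exon and 3.45 times with the longest transcript, so the size of that gap depended on the length used. Emb and Nptn were the highest of the 16 other monocarboxylate transporters and chaperones, of which 7 reached 1 CPM and whose median was 0.344 CPM.

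Of the 10 genes of the Slc4 family, 5 reached 1 CPM. Slc4a2 held 67.3% of their summed level per kb and Slc4a7 held 16.2%. Among the 13 other bicarbonate transporters of the Slc4 and Slc26 families, 6 reached 1 CPM and only Slc4a3, an anion exchanger close to Slc4a2, reached 10 CPM, at 14.3 CPM. The next was Slc26a9, a chloride transporter, at 2.61 CPM. The median of these 13 was 0.360 CPM.

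Other genes of acid and lactate handling were read beside the set. Of the 13 sodium-proton exchangers and their partners, 8 reached 1 CPM (61.5%, against 51.2% of all genes) and their median was 18.3 CPM. The highest was Chp1, a calcium-binding partner of such exchangers, at 259 CPM and 74.0 CPM per kb.

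Of the 6 lactate and pyruvate enzymes and carriers, 5 reached 1 CPM. Ldha, the lactate dehydrogenase subunit that favors lactate formation, had a mean level of 589 CPM and 178 CPM per kb with a BCV of 8.24%. Ldhb, the subunit known for the reverse reaction, had 269 CPM and 171 CPM per kb with a BCV of 5.84%. Ldha thus stood 1.04 times as high as Ldhb per kb of exon, but 1.57 times with the longest transcript. Per kb of exon, Ldha stood 4.25 times as high as Slc16a1, and 7.74 times with the longest transcript. By contrast, receptors and channels that sense acid or lactate were scarcely read. Of 9 such genes, 2 reached 1 CPM, the proton-gated channel gene Asic2 at 1.31 CPM and the lactate receptor gene Hcar1, listed under its older symbol Gpr81, at 1.13 CPM.

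**Figure D3:**
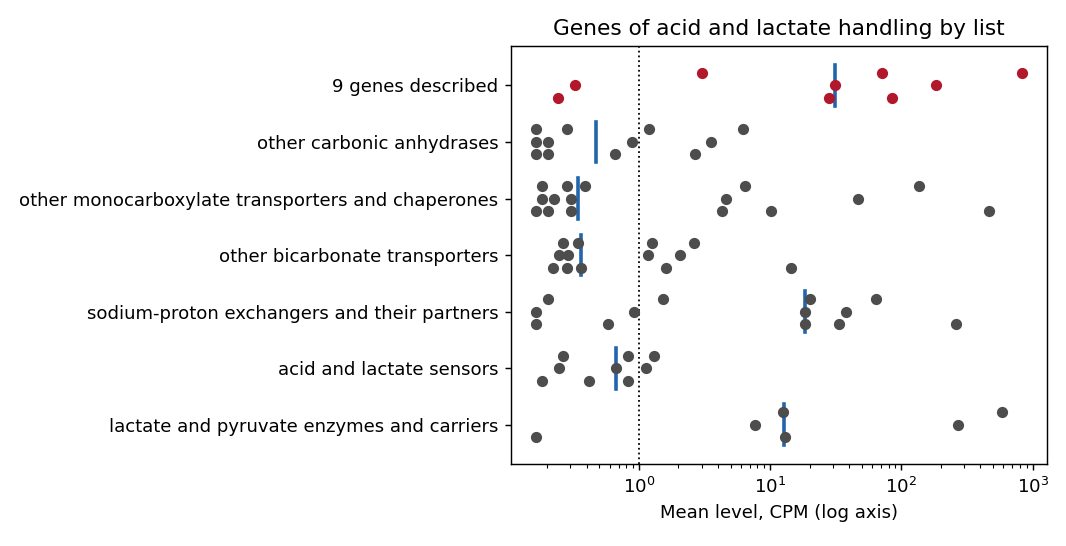
Mean level in CPM, on a log axis, of the 9 genes described (red) and of the genes of 6 lists (grey), with 1 point a gene. Blue bars mark each list's median and the dotted line marks 1 CPM. The medians of the set, the sodium-proton exchangers and the lactate and pyruvate enzymes lie at 31.3, 18.3 and 12.8 CPM, and those of the other 4 lists lie under 1 CPM.

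The DNA before the start sites was read because HIF binds a short core sequence, ACGTG, in hypoxia response elements. RefSeq promoters on GRCm38.p6 were at hand for 7 of the 9 genes, with 2 for Slc4a2. The 250 bases before each start were searched for ACGTG on both strands. The same letters lie inside CACGTG, the palindrome that E-box factors such as MYC bind, so the motifs overlap. The motif was present before the start of 4 of the 7 genes, Car9, Car14, Slc16a1 and Slc16a3. Counted by promoter, it was in 4 of the 8 of these genes, and in 16.6% of the 32851 mouse promoters in the RefSeq table. The palindrome was present in 6.02% of them. The share of G and C in the promoters with the motif was 56.4% for Car9, 62.0% for Car14, 73.6% for Slc16a3 and 76.4% for Slc16a1. In those without it the share was 43.6% for Slc4a7, 59.2% for Car12, and 69.2% and 61.2% for the promoters of Slc4a2, so the ranges overlap. The median over all promoters in the table was 52.4%. The stretches that hold the motif are shown 5′ to 3′ on the gene's own strand, with the motif on either strand in capitals.
Car9, chr4:43506996-43507024, plus strand: ctatttccgatgCACGTacagcccgtcca
Car14, chr3:95904686-95904704, minus strand: cacccccctcctCACGTac
Slc16a1, chr3:104638452-104638481, plus strand: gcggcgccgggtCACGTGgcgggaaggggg
Slc16a3, chr11:120949034-120949063, plus strand: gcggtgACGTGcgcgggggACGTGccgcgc

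In Car9 the motif lies 18 to 14 bases before the RefSeq start, read on the opposite strand, and in Car14 it lies 7 to 3 bases before it, again on the opposite strand. Slc16a3 holds 2 copies on the gene's strand, between 27 and 10 bases before its start. In these 3 genes the stretch overlaps an untranslated exon of a coding transcript in GENCODE M21, and the overlap may be partial. The stretch of Car14 runs from 95904686 to 95904704, past the 5′ end of the span given for that gene at 95904691. In Slc16a1 the match is the E-box palindrome itself, 200 to 195 bases before the start and upstream of all its annotated transcripts, and it reads as ACGTG on both strands. The motif was not found in the 250 bases before the RefSeq starts of Car12 and Slc4a7 or either start of Slc4a2. The starts of Slc4a7 and Slc4a2 lie inside the spans given for these genes. The stretch of Slc4a7 begins at 14718534, while the gene spans from 14703025. Those of Slc4a2 begin at 24424982 and 24425594, while the gene spans from 24423837. The 5′ ends of these 2 spans were thus not searched. A match of the motif's letters does not show that a factor binds there, and binding was not tested. The 4 genes with the motif include Slc16a1 at 185 CPM and Car14, close to the table's floor, at 0.243 CPM. The 3 without it in the stretches searched lie between 31.3 and 85.2 CPM. Any relation of the motif to the level was not tested.

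Some limits touch these levels. Annotated genes on the same strand overlap only Slc16a1 (Gm43581 and Gm43585, neither in the table). On the other strand, Car14 overlaps Aph1a at 8.46 CPM and Slc4a2 overlaps Fastk at 13.0 CPM, and the study counted reads by strand. The level of Car14 lies far under that of Aph1a, and the part that misassigned reads could have in it was not tested. A single gene, Gm26924, held 29.7% of the summed CPM of the table, so every level is scaled down by it. With it left out of the total, every level is 1.42 times as high and still 7 of the 9 genes reach 1 CPM.

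The labelled cell type was read against its markers. Of 8 markers of ovarian surface epithelium and mesothelium, 7 reached 1 CPM, with Krt19 at 938, Wt1 at 153 and Msln at 101 CPM. Krt7 did so at only 1.91 CPM, and Lhx9 was at 0.533 CPM. Of 5 leukocyte markers, Cd68 at 13.0 and Csf1r at 1.88 CPM reached 1 CPM, and the defining gene Ptprc was at 0.224 CPM. Of 3 endothelial markers only Pecam1 did so, at 4.62 CPM, and all 4 fibroblast and smooth muscle markers did so, at 1.13 to 8.39 CPM. The red cell markers read, the beta-globin genes Hbb-bs and Hbb-bt, were at the table's lowest level, which bears on Car2, a gene that red cells hold in quantity. The lanes differ between the lines, with both ID8-P0 libraries in lane 3 and the ID8-PW2 libraries in lanes 4 and 8, so lane and line cannot be told apart in these libraries.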

How the data were processed

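Total RNA from 2 ID8-P0 and 2 ID8-PW2 cultures was split by size, depleted of ribosomal RNA with a duplex-specific nuclease and sequenced by strand. The authors used CASAVA 1.8.2, Trimmomatic 0.22, TopHat2 2.0.6 and Bowtie2 2.0.2, counted reads by gene and ran edgeR 3.20.8, per the submitters' processing notes. These notes name the human build hg19, while the identifiers and chromosomes are mouse. Of 23875 identifiers, 23399 are in GENCODE M21 (GRCm38), 23398 of them on the same chromosome and 18946 with the same start or end (7 of the 9 genes described, not Car2 or Slc4a7).

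The log2 CPM used here is the authors' mean over the 4 libraries, as deposited. The dispersion, a score per gene made with edgeR, is used as the authors deposited it. The fold change, log2 fold change, p-value, FDR and direction columns hold the authors' own comparison of the lines and were not used. The 4 columns of values per library carry names that match no label and were not used, so no count test of ID8-PW2 against ID8-P0, which the design foresaw, was run, and the depth per library is unknown.

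CPM is 2 to the power of log2 CPM, and BCV is the root of the dispersion. Lengths are the union of exons in GENCODE M21, with the longest transcript as the alternative. A gene of at least 1 CPM is taken as expressed. Genes of like level are the 200 nearest in log2 CPM. Promoters are RefSeq's. The genes named are all 9 members, the 2 highest of each list by mean level (the parts of the rule that need calls or values per library could not be applied) and the most abundant gene. Some items that the rule names are not reported here. Slc16a7, Slc16a8, Car13, Car1, Car3, the overlapping genes and the cell type markers Wt1, Msln, Krt7, Lhx9, Ptprc, Hbb-bs and Hbb-bt were named beyond that rule after their values were seen. The members and lists were chosen with earlier results of these data known, and so was the promoter motif. Functions were tested on simulated data. Python 3.11.15, numpy 2.4.6, pandas 2.3.3 and matplotlib 3.10.9 were used.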

Additional observations from a re-analysis of the deposited data

How the results depend on the processing

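No paired analysis was possible because the columns of values per library carry no duplicate number that a label gives. For the same reason the other settings listed for the line comparison were not run, namely another count test, other size factors, the duplicate number as a block, no filter on low counts, other thresholds and leaving out each library. The levels were recomputed instead. The count of genes reaching the level of expression was 7 of 9 at 1 CPM, 7 with Gm26924 left out of the total, and 6 at 10 CPM, where Car9 drops out (the last was chosen after seeing the data). Leaving out Gm26924 moved 7 of the 9 levels by more than 1 BCV, all upward by the factor of 1.42. The longest transcript, an alternative chosen after seeing the data, moved 5 of the 9 levels per kb by more than 1 BCV and kept 7 neighbouring pairs further apart than their joint BCV. Ranking among genes of at least 1 CPM only lowered the percentile of all 7 genes it covers, to 61.7 for Slc16a3, 64.8 for Slc4a7 and 13.0 for Car9. Ranking among protein-coding genes, also added later, gave the largest shifts of percentile for Car9 (55.5 to 50.4), Car2 (39.5 to 34.6) and Car14 (34.0 to 29.2). Car2 and Car14 lie within 1.99 times the lowest level of the table, and the depth behind these values is unknown.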
